A study of Mus musculus with 165 samples.

Results

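Slc5a3, Slc6a6, Slc6a12 and Nfat5 are 3 carriers of organic osmolytes and the transcription factor known to switch them on. They were found by matching Ensembl identifiers to these symbols in the brain and the liver count table, which gave 4 of 55471 identifiers in each table. The 4 names were chosen by earlier results of these same data, and the comparison that led to them is not recorded. Every difference between ages is therefore given as a description, and its adjusted p, taken over all genes of a tissue, is no independent support. The 2 questions addressed are how the RNA of each gene stood at 5 ages in brain and liver, and how the 4 genes varied with one another between mice of the same age.

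Cells balance a change in the salt concentration around them by taking up or releasing small organic solutes that leave proteins undisturbed. Slc5a3 (also SMIT1) carries myo-inositol, Slc6a6 (TauT) carries taurine, and Slc6a12 (BGT1) carries betaine and GABA, each together with sodium. Nfat5, also called TonEBP, is an NFAT relative that is not regulated by calcineurin. It is best known from the kidney medulla, where high salt raises its activity and it raises the RNA of these carriers. In the brain, inositol and taurine are among the main organic osmolytes, and in the liver betaine also feeds methionine synthesis.

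The samples were brains and livers of male C57BL/6J/Ukj mice with no treatment, kept for ageing alone, and each library is the polyA RNA of 1 tissue of 1 mouse, read as stranded pairs of 100 bases. Brain had 82 libraries, with 15, 16, 16, 17 and 18 mice at 3, 9, 15, 24 and 28 months. Liver had 83 libraries, with 16, 16, 16, 17 and 18 mice. The brain of 1 mouse of 3 months was not analysed here. The labels name 3 preps, each with 4 to 7 libraries of every age and tissue. The oldest mice are those alive at 28 months, and no mouse was followed over time.

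Depth ran from 11.46 to 73.39 M (mega) counts in brain and from 5.823 to 57.49 M in liver. The tissue labels held: the summed level of 5 neuronal markers was 2350 to 5774 CPM (counts scaled by library size) in brain and at most 55.1 CPM in liver, and that of 5 hepatocyte markers was at least 19799 CPM in liver. In brain, 2 libraries stood apart, the 28-month mouse numbered 15 (prep 3, 11.46 M counts) and the 24-month mouse numbered 13 (prep 2, 19.65 M counts). Their long genes were low against their short genes, with a slope of log2 level on log2 exon length of -0.63 and -0.41, where the lowest of the other brain libraries had -0.10. They also had the lowest Slc6a6 and Nfat5 of all brain libraries, and the main brain results of the 4 genes are given with and without them. RNA quality itself was not measured in the files, and its part in these values was not tested.

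Slc6a12 and Slc5a3 are shown with the sequence before their start because Slc6a12 holds a match to the tonicity-responsive element that Nfat5 binds, and because Slc5a3 shares its start region with another gene. RefSeq windows on GRCm38.p6, from 250 bases before to 50 bases after each start, were at hand for 3 of the 4 genes. Both sequences are on the plus strand. In the first, 250 bases at chr6:121342324-121342573 that end at the first of 5 RefSeq starts of Slc6a12, capitals mark the element, at chr6:121342499-121342509.
Slc6a12: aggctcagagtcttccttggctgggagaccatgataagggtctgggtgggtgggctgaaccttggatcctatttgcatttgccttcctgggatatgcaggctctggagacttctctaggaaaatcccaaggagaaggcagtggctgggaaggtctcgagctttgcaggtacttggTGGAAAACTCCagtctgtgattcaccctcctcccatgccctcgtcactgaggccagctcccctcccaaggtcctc
In the second, 198 bases at chr16:92058072-92058269, which lie before the first exons of both Slc5a3 and Mrps6, capitals mark GGGCGG, the core of the GC box.
Slc5a3: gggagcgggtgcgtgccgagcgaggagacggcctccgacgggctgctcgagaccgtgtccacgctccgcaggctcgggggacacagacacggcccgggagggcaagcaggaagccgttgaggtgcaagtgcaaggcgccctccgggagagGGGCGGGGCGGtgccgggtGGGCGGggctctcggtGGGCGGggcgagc

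The element was searched on both strands by its consensus, whose fixed core is TGGAAA. It was found in 4.96% of 32851 RefSeq promoter windows of the same length, its core alone in 21.4% and GGGCGG in 35.7%. The Slc5a3 window holds 4 matches to GGGCGG, of which the first 2 share a base. The windows of Slc5a3, of Nfat5 and of the other 4 starts of Slc6a12 hold no match to the element, which says only that these letters are not in those windows. The first RefSeq start of Slc6a12 lies 502 bases before its GENCODE start.

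On GRCm38 with GENCODE vM21, Slc5a3 (ENSMUSG00000089774) spans chr16:92058322-92087473 and has 10913 exon bases. Slc6a6 (ENSMUSG00000030096) spans chr6:91684053-91759066 and has 8457 exon bases. Slc6a12 (ENSMUSG00000030109) spans chr6:121343076-121365775 and has 3052 exon bases. Nfat5 (ENSMUSG00000003847) spans chr8:107293470-107379517 and has 18378 exon bases. All lie on the plus strand and code for protein. Slc5a3 starts 52 bases after Mrps6, a gene of a mitochondrial ribosome protein on the same strand, while in RefSeq Mrps6 starts 14 bases after Slc5a3. In GENCODE 159 bases belong to exons of both, which are 1.46% of the Slc5a3 exon bases and 10.4% of those of Mrps6. The same bases also belong to Gm49711, which shares 305 exon bases with Mrps6 on the same strand, 19.9% of those of Mrps6. On the other strand, 117 exon bases of Slc6a6 overlap Gm44981. How the authors' counting treated shared bases is not given in the sources used here, so a few of the Slc5a3 reads and some of the Mrps6 reads are uncertain.

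The tissues ranked the 4 genes differently. Levels of different genes were compared as CPM per kilobase of exon, and the values that follow are the lowest, the median and the highest library. In brain, Slc6a6 was highest at 5.41, 21.6 and 30.5, followed by Nfat5 at 2, 8.17 and 10.1, Slc5a3 at 1.63, 4.19 and 9.3, and Slc6a12 at 0.0947, 0.257 and 2.26. Neighbours in that order overlapped in range. In liver, Slc6a12 was highest at 14.5, 26.4 and 36.1, with Slc6a6 at 12.4, 17.9 and 28, Nfat5 at 1.64, 2.28 and 4.01 and Slc5a3 at 0.222, 0.526 and 1.28. In liver the ranges of Slc6a12 and Slc6a6 overlapped, while the lowest of both lay above the highest Nfat5, and the highest Slc5a3 lay below the lowest Nfat5.

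In 1 fit over both tissues (edgeR quasi-likelihood test on counts, 14035 genes, Benjamini-Hochberg adjustment), all 4 genes differed between liver and brain at 3 months, where 90.1% of all genes tested did. On the joint scale Slc6a12 ran from 0.417 to 3.93 CPM in brain (median 1.26, n = 15) and from 77.1 to 141 CPM in liver (median 112, n = 16). No library of one tissue reached the other. Its log2 difference, liver minus brain, was 6.13 ± 0.24 (SE), a 70.1-fold higher level in liver (adjusted p = 2.5e-56). Slc5a3 ran from 33.1 to 101 CPM in brain (median 55.5) and from 7.89 to 20.7 CPM in liver (median 10.6), again without overlap. Its liver level was 0.196 of that in brain, a log2 difference of -2.35 ± 0.13 (adjusted p = 4e-40). Nfat5 was 0.446 times as high in liver as in brain, a log2 difference of -1.16 ± 0.10 (adjusted p = 1.3e-22).

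Slc6a6, the taurine carrier, was nearest to equal in the pair of tissues. On the joint scale it ran from 124 to 199 CPM in brain (median 156) and from 155 to 295 CPM in liver (median 212), and the tissues overlapped. Its log2 difference of 0.41 ± 0.09 (adjusted p = 2.2e-05) rests on the scaling. With factors computed within each tissue, which lower the median of all genes by 0.39 on the log2 scale from -0.08 to -0.47, it was 0.02 with an adjusted p of 0.80. In prep 3 alone it was 0.28 (adjusted p = 0.16). The other 3 genes kept their direction and their call under every scaling, prep and block that was run.

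Slc5a3, the inositol carrier, stood lower at 28 than at 3 months in both tissues. In brain the lowest, median and highest library were 34.1, 55.9 and 101 CPM at 3 months, 26.8, 47.6 and 73.5 at 9 months, 37.8, 51.2 and 72.5 at 15 months, 29.4, 44.6 and 56.6 at 24 months, and 17.8, 36.4 and 48.4 at 28 months. All 18 mice of 28 months lay below the 3-month median, 8 of them below the lowest 3-month mouse, and 10 of the 15 mice of 3 months lay above the highest of 28 months. The log2 difference between 28 and 3 months was -0.72 ± 0.11 (edgeR, adjusted p = 6.1e-07), a level 0.609 times as high. Between 24 and 3 months it was -0.45 ± 0.11 (adjusted p = 0.0043), which did not pass in any prep alone, and at 9 and 15 months it was -0.30 and -0.21 and did not pass the test. The 28-month difference within prep 1, 2 and 3 alone was -0.68, -0.59 and -0.86. Prep 2 alone did not pass the test. Without the 2 libraries that stand apart it was -0.67 ± 0.11.

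**Figure D1:**
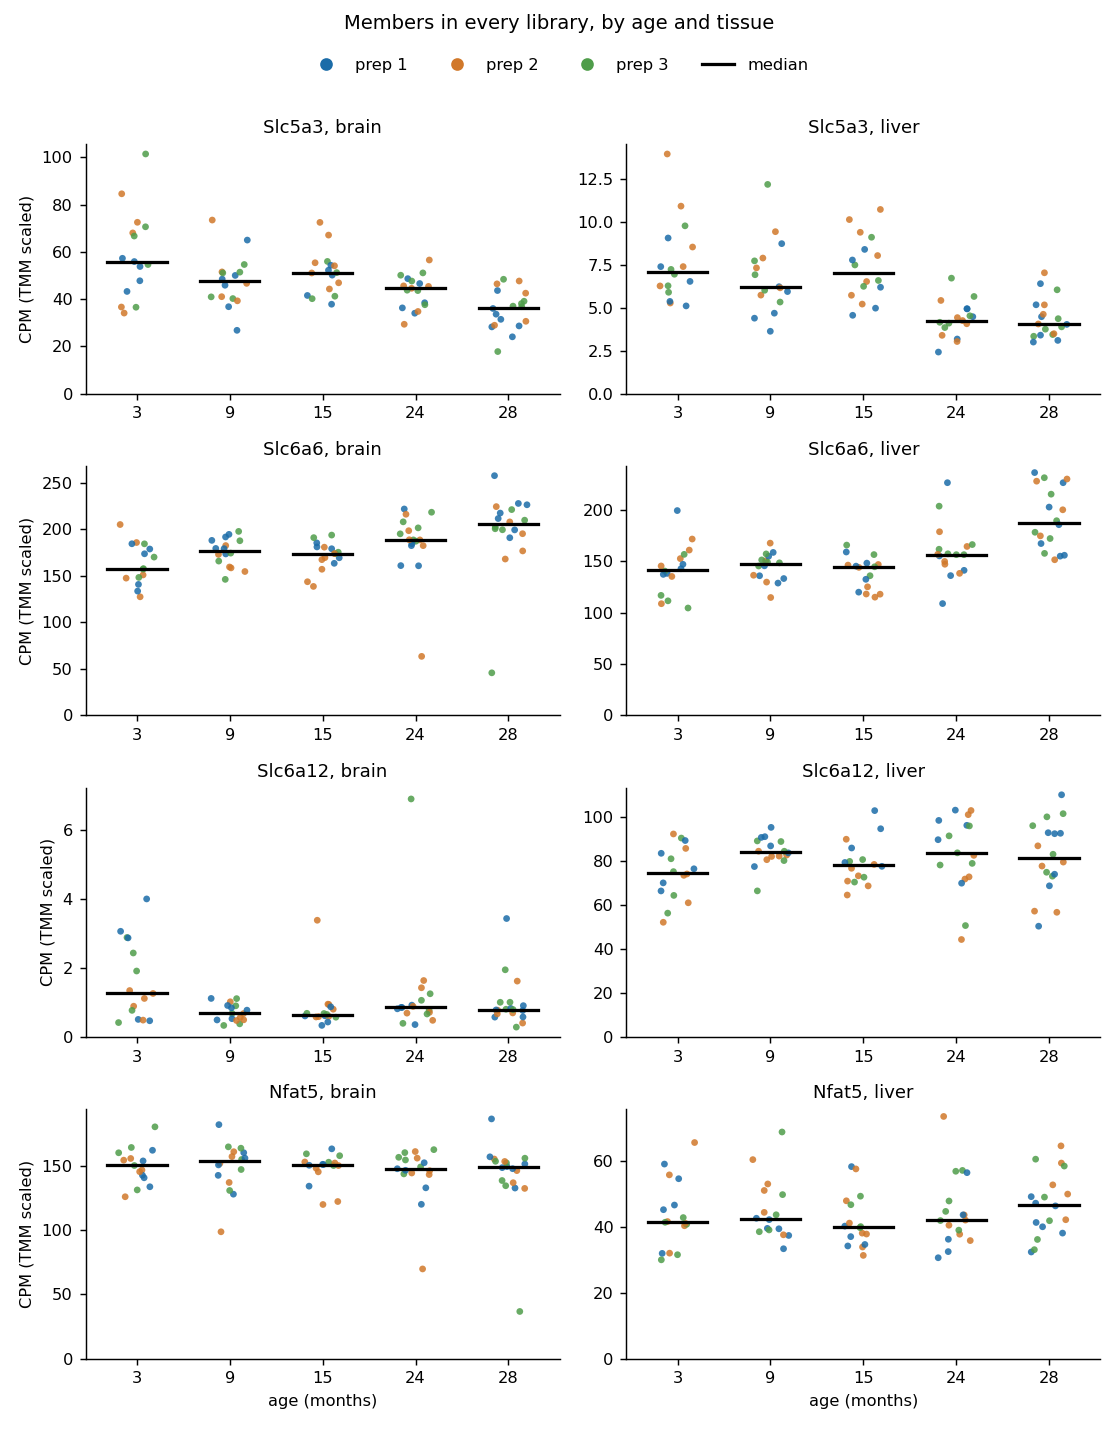
Level of each gene in every library (CPM after TMM scaling, y axis from 0) by age in months, brain on the left and liver on the right, 1 point per mouse coloured by prep, with a black bar at the median. Slc5a3 medians go from 55.9 to 36.4 CPM in brain and from 7.11 to 4.05 CPM in liver between 3 and 28 months, and the 2 low points of Slc6a6 and Nfat5 in brain are the libraries that stand apart.

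In liver, Slc5a3 was a low-level gene, and its difference lay between 15 and 24 months. The lowest, median and highest library were 5.12, 7.11 and 14 CPM at 3 months, 3.64, 6.21 and 12.2 at 9 months, 4.57, 7.06 and 10.7 at 15 months, 2.42, 4.26 and 6.74 at 24 months, and 3.01, 4.05 and 7.05 at 28 months. At 24 months 14 of 17 mice and at 28 months 13 of 18 lay below the lowest 3-month mouse, and all 18 of 28 months lay below its median. The log2 difference was -0.81 ± 0.13 between 24 and 3 months (adjusted p = 4.7e-07, not passing in prep 1 alone), -0.75 ± 0.13 between 24 and 15 months (adjusted p = 1.4e-05, not passing in prep 1 or 3 alone) and -0.77 ± 0.13 between 28 and 3 months (adjusted p = 3.3e-07). Between 28 and 24 months it was 0.04 ± 0.13. At 9 and 15 months against 3 months it was -0.16 and -0.07, and neither passed. In the 3 preps taken alone the 28-month difference was -0.69, -0.83 and -0.82. In these bulk samples, fewer cells that hold a transcript and less of it per cell cannot be told apart.

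Mrps6, the ribosome protein gene that shares the start region printed above, passed the test between 28 and 3 months in liver and not in brain. In that comparison 61.9% of all liver genes and 28.3% of all brain genes passed. Whether Slc5a3 and Mrps6 differ in their change was not tested. In liver Mrps6 ran from 6.13 to 9.56 CPM at 3 months (median 6.93) and from 3.77 to 5.68 CPM at 28 months (median 4.47), so that all 18 old mice lay below every young one. Its log2 difference there was -0.66 ± 0.07 (adjusted p = 6.5e-12). It was also lower at 28 than at 24 months, by -0.25 ± 0.07 (adjusted p = 0.013). In brain it ran from 11.1 to 18.1 CPM at 3 months (median 14.5) and from 9.27 to 73.7 CPM at 28 months (median 13). The brain difference of 0.11 ± 0.15 (adjusted p = 0.61) turned to -0.18 ± 0.06 (adjusted p = 0.018) without the 2 libraries that stand apart, which held its highest brain values, 39 and 73.7 CPM.

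Slc6a6 was higher at 28 than at 3 months in both tissues. In liver the lowest, median and highest library were 105, 142 and 200 CPM at 3 months, 115, 147 and 168 at 9 months, 115, 145 and 166 at 15 months, 109, 157 and 227 at 24 months, and 152, 188 and 237 at 28 months. All 18 mice of 28 months lay above the 3-month median and 8 above the highest 3-month mouse. The log2 difference was 0.43 ± 0.07 between 28 and 3 months (adjusted p = 3.3e-07), 1.35-fold, and within prep 1, 2 and 3 it was 0.29, 0.44 and 0.58. Prep 1 alone did not pass the test. Between 28 and 24 months it was 0.27 ± 0.07 (adjusted p = 0.0046), which did not pass in any prep alone or with the clock gene score in the model (0.25, adjusted p = 0.14). Between 24 and 3 months it was 0.16 ± 0.07 (edgeR, adjusted p = 0.055) and did not pass. Between 24 and 15 months it was 0.19 ± 0.07 (adjusted p = 0.030), and this call was lost in 7 of 14 alternatives. With limma voom without quality weights the call was also lost on leaving out any 1 of 16 livers, when the difference lay at 0.15 to 0.18.

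In brain, Slc6a6 ran at 127, 158 and 205 CPM at 3 months, 146, 177 and 198 at 9 months, 139, 174 and 194 at 15 months, 63.4, 189 and 222 at 24 months, and 45.7, 205 and 258 at 28 months. Of the 18 mice of 28 months, 17 lay above the 3-month median and 9 above the highest 3-month mouse. The log2 difference between 28 and 3 months was 0.28 ± 0.10 (adjusted p = 0.025), 1.21-fold, while over the 4 age terms together Slc6a6 did not pass (adjusted p = 0.17). The 2 libraries that stand apart held the values 45.7 and 63.4 CPM; without them the 28-month range was 168 to 258 CPM, the difference was 0.35 ± 0.05 (adjusted p = 4.4e-08) and that between 24 and 3 months was 0.24 (adjusted p = 0.00032) in place of 0.19 (adjusted p = 0.25). Within prep 1, 2 and 3 the 28-month difference was 0.43, 0.26 and 0.14, and only prep 1 passed. With limma voom on all brains it was 0.24 (adjusted p = 0.10) without quality weights and 0.32 (adjusted p = 5.2e-08) with them.

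Slc6a12, the betaine carrier, was the lowest of the 4 genes in brain and the highest per kilobase in liver by median. In brain the lowest, median and highest library were 0.421, 1.27 and 4.01 CPM at 3 months, 0.337, 0.684 and 1.12 at 9 months, 0.339, 0.637 and 3.39 at 15 months, 0.362, 0.858 and 6.91 at 24 months, and 0.289, 0.793 and 3.44 at 28 months. The lowest library of each age rests on 10 to 21 counts, and the highest value of all on 307 counts. At 9 months all 16 mice lay below the 3-month median, and at 28 months 15 of 18 did. The log2 difference was -1.21 ± 0.33 between 9 and 3 months (adjusted p = 0.092) and -0.74 ± 0.31 between 28 and 3 months (adjusted p = 0.064), and neither passed. Over the 4 age terms together it did pass (adjusted p = 0.027), as did 20.6% of all brain genes. Within prep 1, 2 and 3 the 28-month difference was -0.95, -0.30 and -0.92, and without the 2 libraries that stand apart it was -0.79 ± 0.31 (adjusted p = 0.044).

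Markers of the coverings and linings of the brain were set beside these values. Of 6 markers of meningeal fibroblasts, 3 (Lum, Col1a1 and Col1a2) were lower and none higher at 28 than at 3 months, where 12% of all brain genes were lower, and their summed level ran from 36.1 to 131 CPM at 3 months (median 95.9) and from 38.2 to 119 CPM at 28 months (median 71.8). Of 6 choroid plexus markers none passed, and their sum ran from 47.5 to 6453 CPM at 3 months (median 186) and from 46 to 5323 CPM at 28 months (median 114). The median log2 difference of the choroid plexus markers from 3 months was -1.63 at 9 months, -1.24 at 15, -1.40 at 24 and -0.46 at 28 months, beside -1.21, -0.89, -0.42 and -0.74 for Slc6a12. At 24 months 1 of these 6 markers was lower, and at 9 and 15 months none passed. For the meningeal markers that median was -0.39, -0.32, -0.29 and -0.38, with 1 of 6 lower at 9, 15 and 24 months each. Of all 18711 brain genes tested, 24, 65 and 723 were lower at 9, 15 and 24 months. Between 28 and 3 months none of 5 pericyte and vascular smooth muscle markers passed, and of 5 endothelial markers 1 was higher and 1 lower. With age and prep means removed, brain Slc6a12 correlated with the summed meningeal markers (r = 0.405, Spearman's rho = 0.328, adjusted permutation p = 0.00084, 82 mice), with the endothelial markers (r = 0.393, rho = 0.398, adjusted p = 0.0011) and with the choroid plexus markers (r = 0.311, rho = 0.292, adjusted p = 0.016). With the pericyte markers it was r = 0.115 (adjusted p = 0.29), and 0.373 (adjusted p = 0.0019) without the 2 libraries that stand apart. Within prep 1, 2 and 3 the meningeal r was 0.48, 0.451 and 0.274, and without the 2 mice farthest from the median Slc6a12 it was 0.32. The endothelial r was 0.148, 0.263 and 0.605, and 0.384 without the 2 farthest mice. The choroid plexus r was 0.531, 0.184 and 0.3, and 0.235 without the 2 farthest mice. Without the 2 libraries that stand apart, the meningeal, endothelial and choroid plexus r were 0.466, 0.356 and 0.309. How much of the Slc6a12 differences these cell types carry was not tested.

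In liver, Slc6a12 ran at 52.2, 74.7 and 92.3 CPM at 3 months, 66.4, 84.1 and 95.3 at 9 months, 64.6, 78 and 103 at 15 months, 44.3, 83.7 and 103 at 24 months, and 50.4, 81.3 and 110 at 28 months. All ages overlapped with 3 months. At 9 months 15 of 16 mice lay above the 3-month median, and at 28 months 12 of 18 did, 7 of them above the highest mouse of 3 months. The log2 difference between 28 and 3 months was 0.12 ± 0.08 (adjusted p = 0.23), and within prep 1, 2 and 3 it was 0.09, -0.02 and 0.24. The test over the 4 age terms together, which 71.5% of liver genes passed, gave an adjusted p of 0.36. With the slope on exon length in the model, the 28-month difference was 0.19 ± 0.08 (adjusted p = 0.030).

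Nfat5, the transcription factor, did not pass the edgeR test against 3 months at any age in either tissue. In brain it ran at 126, 150 and 180 CPM at 3 months, 98.6, 153 and 182 at 9 months, 120, 151 and 163 at 15 months, 69.8, 148 and 162 at 24 months, and 36.8, 149 and 186 at 28 months. The medians ran from 148 to 153 CPM, and the 2 lowest values are those of the libraries that stand apart. The log2 difference between 28 and 3 months was -0.07 ± 0.09 (adjusted p = 0.56), and -0.005 ± 0.047 without the 2 libraries. In liver it ran at 30.1, 41.6 and 65.7 CPM at 3 months, 33.4, 42.5 and 68.9 at 9 months, 31.4, 40 and 58.4 at 15 months, 30.7, 42.1 and 73.6 at 24 months, and 32.4, 46.9 and 64.7 at 28 months. Its log2 difference there was 0.10 ± 0.10 (adjusted p = 0.39), and within prep 1, 2 and 3 it was -0.19, 0.23 and 0.30. With the slope on exon length in the model, the difference turned to 0.07 ± 0.02 in brain (adjusted p = 0.023) and to -0.10 ± 0.05 in liver (adjusted p = 0.088). RNA level says nothing of the protein's activity, which hypertonic medium is known to raise in other ways too.

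**Figure D2:**
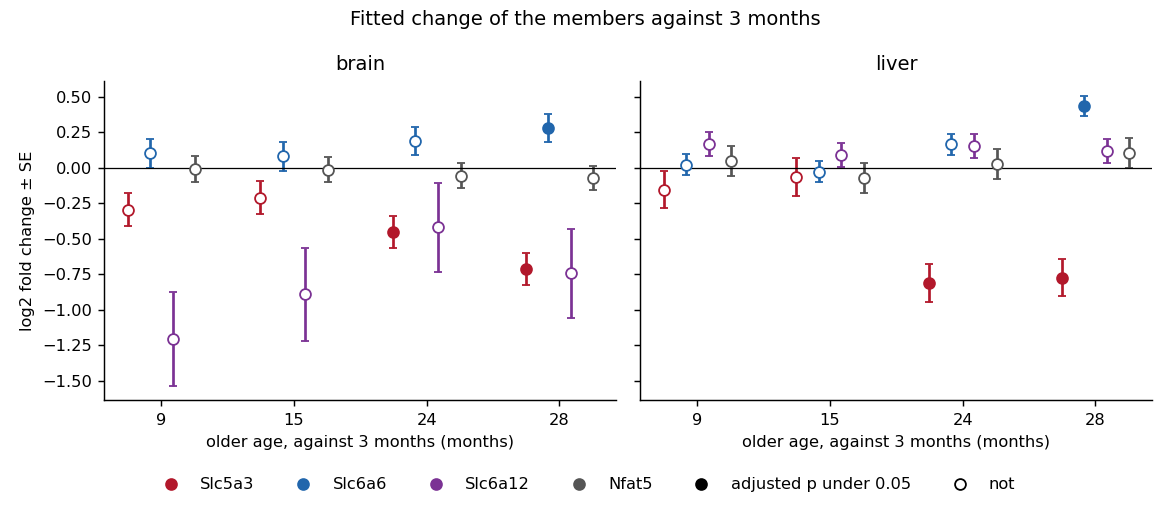
Fitted log2 fold change of each gene at 9, 15, 24 and 28 months against 3 months, with its standard error, in brain and liver; filled points have an adjusted p under 0.05. Slc5a3 lies below 0 at every age and Slc6a6 is filled at 28 months in both tissues, while Slc6a12 has the widest errors in brain.

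The counts of the 4 genes that passed the edgeR test stood beside those of all genes as follows, and nothing is read from them, since the genes were listed with such results known. In brain it was 0 of 4 at 9 months against 3 months (0.315% of all 18711 genes tested), 0 at 15 months (0.871%), 1 at 24 months (10.1%) and 2 at 28 months (28.3%). The counts of 0 in brain were 2 and 1 at an unadjusted p under 0.05, and DESeq2 and limma voom with quality weights each called 1 gene at 9 months, Slc6a12, and none at 15 months; limma voom without quality weights gave Slc6a12 an adjusted p of 0.18 at 9 months. At 9 months DESeq2 called 123 of 18204 genes in all and voom with quality weights 490 of 18711, and over 16 alternatives 6 called 1 of the 4 genes and 10 called none. In liver it was 0 at 9 months (4.69% of 15579 genes), 0 at 15 months (7.32%), 1 at 24 months (49%) and 2 at 28 months (61.9%). No liver gene of the 4 reached an unadjusted p under 0.05 at 9 or 15 months, or a call by DESeq2 or limma voom with quality weights. Between 24 and 15 months 2 of 4 passed in liver (36%), and between 28 and 24 months 1 did (15.3%).

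The change from 3 to 28 months was compared between the tissues in the fit over both, where 49.2% of all genes tested differed. Slc6a12 was the exception among the 4: its log2 change was 0.92 ± 0.30 higher in liver than in brain (adjusted p = 0.0066), and 0.86 (adjusted p = 0.021) with the mouse as a block and 0.95 (adjusted p = 0.0046) without the 2 brain libraries that stand apart. Taken by prep, this difference was 1.04, 0.32 and 1.31, and none passed alone. Between 24 and 3 months the tissues differed by 0.59 ± 0.29 in the change of Slc6a12 (adjusted p = 0.12), which did not pass, with 1.74 (adjusted p = 0.033), 0.25 and 0.05 in prep 1, 2 and 3. For Slc5a3 the tissues differed by -0.02 ± 0.17 (adjusted p = 0.93), for Slc6a6 by 0.19 ± 0.13 (adjusted p = 0.21) and for Nfat5 by 0.21 ± 0.14 (adjusted p = 0.19).

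Of 10 clock genes grouped as high together, 5 in brain and 7 in liver were higher at 28 than at 3 months and 0 lower. Of 3 genes of the opposite phase, 1 in brain and 3 in liver were lower and 0 higher. Over all genes 16.3% were higher and 12% lower in brain, and 31.9% and 30% in liver. In brain the 10 did not move alike, and their log2 differences ran from 0.73 (Ciart) to -0.21 (Per2). The clock gene score was the mean standardised level of the 10 genes less that of the 3. This score had a median of -0.298 at 3 and 0.8 at 28 months in brain and of -1.22 and 1.38 in liver. The score ran from -0.771 to -0.0211 at 3 months and from -0.673 to 4.25 at 28 months in brain. In liver it ran from -1.80 to 1.54 and from -1.43 to 4.99, so the ages overlapped in both tissues. Its highest brain value, 4.25, was that of the 28-month library that stands apart. With the score as a covariate, the brain difference of Slc5a3 between 28 and 3 months was -0.45 ± 0.11 (adjusted p = 0.0017) in place of -0.72, that of Slc6a6 was 0.49 ± 0.10 (adjusted p = 0.00012), that of Slc6a12 was -1.02 ± 0.36 (adjusted p = 0.027) and that of Nfat5 turned to 0.21 ± 0.08 (adjusted p = 0.030). With the score as a covariate and without the 2 libraries, the differences were -0.49 ± 0.12 for Slc5a3, 0.35 ± 0.06 for Slc6a6, -1.01 ± 0.38 for Slc6a12 (adjusted p = 0.035) and 0.10 ± 0.05 for Nfat5 (adjusted p = 0.12). In liver the covariate changed no call or direction of the 4 genes between 28 and 3 months. The hour of sampling is not in the labels.

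**Figure D3:**
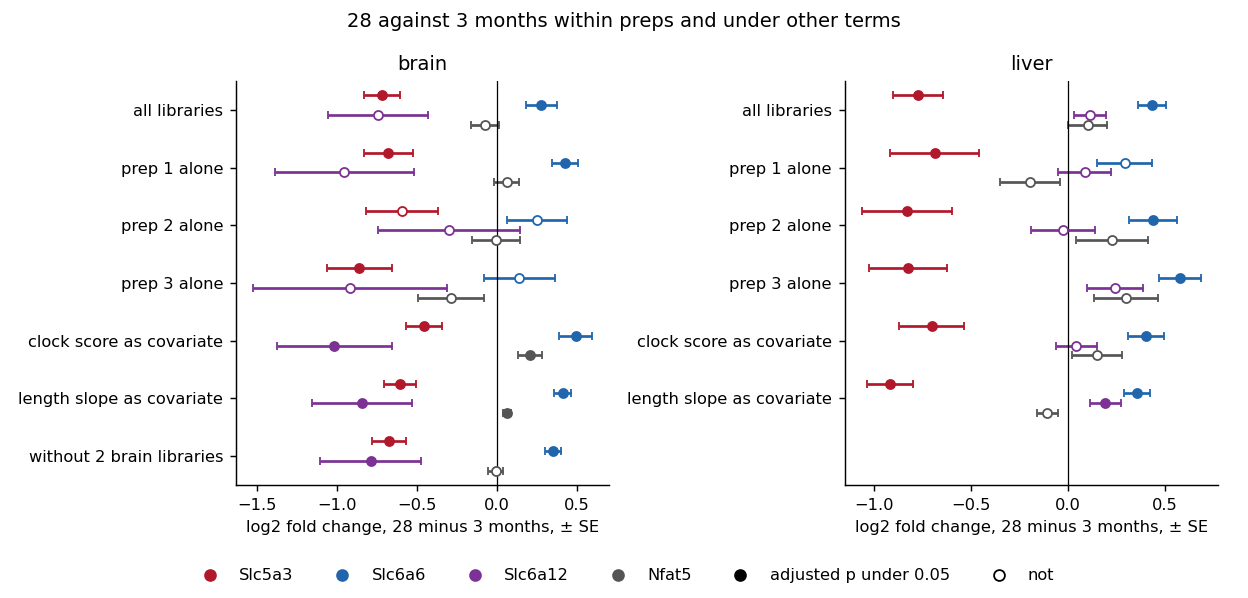
Log2 fold change between 28 and 3 months with its standard error for each gene, within each prep and under other terms (y axis), in brain and liver; filled points have an adjusted p under 0.05. Slc5a3 lies below 0 and Slc6a6 above 0 in every row of both tissues, and Nfat5 lies on both sides of 0.

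Between mice of the same age and prep, Nfat5, the gene with the most exon bases of the 4, followed the balance of long and short genes in a library. With age and prep means removed from log2 CPM, Nfat5 correlated with the slope on exon length at r = 0.977 in brain (Spearman's rho = 0.893, adjusted permutation p = 2e-05, 82 mice), at 0.909 without the 2 libraries that stand apart, and at 0.857 in liver (rho = 0.843, adjusted p = 2e-05, 83 mice). The 4 livers with the highest Nfat5, from 64.7 to 73.6 CPM, had slopes from 0.070 to 0.154, and the highest of both was the liver of the 24-month mouse numbered 13. Slc5a3 and Slc6a6 also correlated with the slope in liver, at 0.453 and 0.42, and Slc6a12 at -0.419. In brain it was 0.511 for Slc5a3, 0.889 for Slc6a6 and -0.233 for Slc6a12, and 0.355, 0.396 and -0.147 without the 2 libraries. Nfat5 gave 0.944, 0.959 and 0.993 within prep 1, 2 and 3 in brain and 0.834, 0.916 and 0.793 in liver, and 0.922 and 0.836 without the 2 mice farthest from its median. Removing the slope takes out most of the variation of Nfat5, so a relation of Nfat5 that does not pass once the slope is removed is not shown to be absent. The relations between the genes are given with and without the slope removed, a choice made after seeing the data; whether the slope stems from RNA quality or library making was not tested.

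In liver, Nfat5 correlated with Slc6a6 (r = 0.527, rho = 0.514, adjusted permutation p = 4e-05, 83 mice) and with Slc5a3 (r = 0.492, rho = 0.459, adjusted p = 4e-05). With the slope removed, the first was 0.357 (adjusted p = 0.0089) with a rho of 0.259 (adjusted p = 0.066), and the second was 0.227 (adjusted p = 0.10) and did not pass. Within prep 1, 2 and 3 the first was 0.464, 0.34 and 0.72 and the second 0.588, 0.441 and 0.497, the slope not removed. Without the 2 mice farthest from the median of the carrier they were 0.522 and 0.424, and without the liver of the 24-month mouse 13 they were 0.561 and 0.52. Liver Nfat5 and Slc6a12 turned from r = -0.19 (adjusted p = 0.21) to 0.362 (adjusted p = 0.0089; rho = 0.227, adjusted p = 0.10) with the slope removed. These values share a library and its scaling, 12 pairs were computed, and 1e-05 is the smallest unadjusted p that 100000 permutations can give.

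In brain the relations turned on the slope and on the 2 libraries that stand apart. Slc6a6 and Nfat5 gave r = 0.881 with all 82 brains, 0.466 (adjusted p = 6e-05) without the 2, and 0.136 (adjusted p = 0.39) over all brains with the slope removed. Slc5a3 and Nfat5 gave 0.466 with all brains, 0.237 (adjusted p = 0.11) without the 2 and -0.182 (adjusted p = 0.16) with the slope removed. Neither pair passed with the slope removed. Slc5a3 and Slc6a6 gave r = 0.172 with all brains and rho = -0.331 (adjusted p = 0.006), r = -0.508 (adjusted p = 9e-05) without the 2 libraries, and r = -0.717 (rho = -0.715, adjusted p = 0.00012) over all brains with the slope removed. Brains with more of the inositol carrier thus had less of the taurine carrier in the last 2 fits, but not with the clock gene score removed in place of the slope (-0.178, adjusted p = 0.28). Within prep 1, which holds neither library, r was -0.299 (adjusted p = 0.23), and it was 0.00289 and 0.475 in prep 2 and 3, which hold 1 each.

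Brain and liver of the same mouse were compared for each gene, with age and prep means removed. Nfat5 gave r = -0.347 (rho = -0.336, adjusted p = 0.0011, 82 mice), -0.302 (adjusted p = 0.013) without the 2 brain libraries, -0.269 (adjusted p = 0.029) without the liver of the 24-month mouse 13, and -0.295 without the 2 mice farthest from the median. With the slope of each library removed it was 0.105 (adjusted p = 0.44), a value over the small part of the Nfat5 variation that the slope leaves, which cannot tell whether the negative relation holds apart from the slope. Within prep 1, 2 and 3 it was -0.317, -0.513 and -0.438, and no r passed alone. Slc6a6 gave r = 0.0658 with all mice, 0.366 (adjusted p = 0.0087) without the 2 libraries and 0.607 (rho = 0.552, adjusted p = 4e-05) with the slope removed, and 0.491, 0.22 and -0.342 within the preps with neither step. Slc5a3 gave r = 0.218 (adjusted p = 0.12) and 0.312 (adjusted p = 0.0081) with the slope removed, with 0.0149, 0.629 and -0.101 within the preps. Slc6a12 gave -0.107 (adjusted p = 0.51) and -0.0439 with the slope removed.

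**Figure D4:**
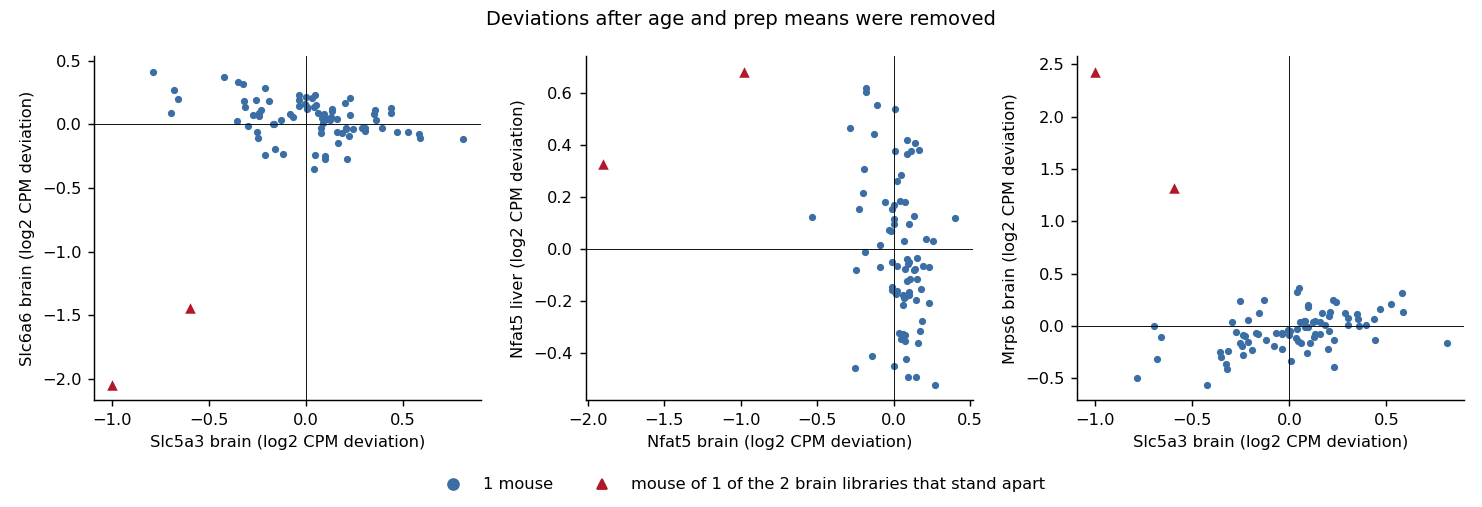
Deviations of log2 CPM from age and prep means, 1 point per mouse, for brain Slc5a3 against brain Slc6a6, brain Nfat5 against liver Nfat5, and brain Slc5a3 against brain Mrps6; triangles are the mice of the 2 brain libraries that stand apart. Without the triangles, r is -0.508, -0.302 and 0.565 from left to right, and with the slope on exon length removed over all mice it is -0.717, 0.105 and 0.732.

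Slc5a3 and Mrps6, whose first exons begin within 52 bases, correlated between brains of the same age and prep once the 2 libraries were left out (r = 0.565, rho = 0.567, adjusted p = 2e-05, 80 mice). With all brains r was -0.121 and rho 0.39 (adjusted p = 0.00074), and within prep 1, 2 and 3 r was 0.614, 0.155 and -0.562. Without the 2 mice farthest from the median Slc5a3, over all brains, it was 0.169. With the slope removed it was 0.732 (rho = 0.753, adjusted p = 2e-05). In liver r was -0.0241 (adjusted p = 0.83), and 0.324 (adjusted p = 0.0039) with the slope removed. Of the Mrps6 exon bases 10.4% also belong to Slc5a3 and 19.9% to Gm49711, so these counts are not wholly separate.

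Between mice of the same age, brain Nfat5 and Slc5a3 correlated with the clock gene score with and without the 2 libraries that stand apart, and brain Slc6a6 and Slc6a12 did not pass without them. Brain Nfat5 correlated with it at r = -0.739 (rho = -0.364, adjusted p = 4e-05) and at -0.458 (adjusted p = 0.00032) without the 2 libraries, and at -0.651, -0.687 and -0.877 within prep 1, 2 and 3. Brain Slc5a3 gave r = -0.512 (rho = -0.375, adjusted p = 4e-05) and -0.356 (adjusted p = 0.0015) without the 2 libraries, with -0.637, -0.447 and -0.59 within the preps. Without the 2 mice farthest from the median of the gene, r was -0.491 and -0.415. Brain Slc6a6 gave -0.579 (adjusted p = 0.0027), but -0.0168 (adjusted p = 0.87) without the 2 libraries. Brain Slc6a12 gave 0.17 (adjusted p = 0.22), and 0.0635 (adjusted p = 0.77) without them. In liver none of the 4 genes passed, the strongest being Slc6a12 at 0.109. These relations were not tested with the slope on exon length removed.

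The genes most like each of the 4 were taken as the 3 with the highest r after age and prep means were removed, as a description only, with the slope on exon length not removed. In liver Slc6a12 was nearest to Fah (r = 0.883) and Aldh4a1 (0.854), enzymes of tyrosine and of proline breakdown, and to Hebp1 (0.839), a heme-binding protein gene. Liver Nfat5 was nearest to Birc6 (0.89), Vps13b (0.888) and Chd6 (0.887). The genes near liver Slc6a6 included Zfp512b (0.759) and Kif16b (0.671), and liver Slc5a3 was nearest to Map3k2 (0.664), Zfp236 (0.652) and Homer1 (0.633). Among the genes ordered by likeness to liver Slc6a6, Nfat5 was number 58.

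In brain, Slc6a12 was nearest to Slc6a13 (r = 0.838), the GABA carrier GAT2, to Gjb2 (0.832), a connexin gene, and to Ptgds (0.815), a prostaglandin D synthase gene, and these were also its nearest 3 without the 2 libraries. For the other 3 genes the order rested on those libraries in part. Brain Slc5a3 was nearest to Zdbf2 (0.815), Xpo1 (0.81) and Cfap300 (0.779), and without the 2 libraries to Hspa5 (0.784), a chaperone gene of the endoplasmic reticulum, Zdbf2 (0.775) and Mettl16 (0.775). Brain Slc6a6 was nearest to Kat6b (0.942), Rbm33 (0.94) and Setd5 (0.94), and without them to Zkscan2 (0.736), Gm49759 (0.724) and Fnbp4 (0.722). Brain Nfat5 was nearest to Ankhd1 (0.974), Ash1l (0.973) and Phc3 (0.972), and without them to Ankhd1 (0.897), Tnrc6b (0.895) and Pdpr (0.884).

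Other genes of osmolyte handling and cell volume, 53 in 8 lists drawn up around the 4, passed the test between 28 and 3 months in 9 of 49 cases in brain and 41 of 50 in liver. Of the 49 tested in brain, 4 were higher and 5 lower, beside 16.3% of all genes higher and 12% lower; the median log2 difference was -0.04, beside 0.01 over all genes. Without the 2 libraries that stand apart 13 passed, beside 6297 of all 18711 genes in that fit. Of the 50 tested in liver, 21 were higher and 20 lower, beside 31.9% and 30% of all genes; the median was 0.04, beside 0.01.

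Among the volume and Nfat5-related genes of brain, Sgk1, a kinase that acts on ion carriers and channels, rose from 59.9 ± 10.8 to 95.3 ± 40.4 CPM (mean ± SD, n = 15 and 18), a log2 difference of 0.67 ± 0.15 (adjusted p = 0.00024), and 0.73 without the 2 libraries. Lrrc8a, the subunit that every volume-regulated anion channel needs, rose by 0.43 ± 0.12 (adjusted p = 0.0037), by 0.24 ± 0.06 without the 2 libraries, and stood at -0.01 with the clock score in the model, and of its 16 alternatives 4 others did not pass. Sord, which turns sorbitol to fructose, rose by 0.23 ± 0.03 (adjusted p = 1.4e-07), and Oxsr1, a kinase of chloride cotransporters, by 0.14 ± 0.05 (adjusted p = 0.035). Oxsr1 no longer passed without the filter on low counts, in prep 2 or 3 alone or with only the 2 ages, and Sgk1 and Isyna1 passed in no prep alone. Sord lost its call in 1 of 16 alternatives. Aqp4, the water channel of astrocyte endfeet, was lower at 28 months, at 116 ± 34.5 CPM against 160 ± 10.4 CPM, a log2 difference of -0.46 ± 0.12 (adjusted p = 0.0030). It did not pass in 4 of 16 alternatives. It was -0.16 (adjusted p = 0.32) with the clock score in the model, and -0.30 (adjusted p = 0.00017) with the score and without the 2 libraries. Beside these brain values, 4 of 5 microglia markers and 3 of 5 red blood cell markers were higher at 28 than at 3 months, and of 5 astrocyte markers Gfap (0.75) and Aldh1l1 (0.27) were higher and Gja1 (-0.18) lower. The summed microglia markers ran from 296 to 361 CPM at 3 months and from 318 to 577 CPM at 28 months, the astrocyte markers from 3771 to 4706 and from 1699 to 5772 CPM, and the red blood cell markers from 29.9 to 234 and from 34.4 to 725 CPM. The part of these cells in the brain values, those of Slc6a6 included, was not tested. Isyna1, which makes inositol phosphate from glucose phosphate, was lower by -0.28 ± 0.07 (adjusted p = 0.00082), the heat shock gene Hspa4l by -0.29 ± 0.09 (adjusted p = 0.0083) and Slc36a1, a proton-coupled amino acid carrier, by -0.19 ± 0.07 (adjusted p = 0.034). The last 2 also lost their calls with the clock score in the model, at -0.03 and -0.06, and over all 16 alternatives Hspa4l lost its call in 6 and Slc36a1 in 8; without the 2 libraries as well, they stood at -0.12 (adjusted p = 0.087) and -0.16 (adjusted p = 0.0075).

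Liver genes that passed lay on both sides of 0 in most lists, as over all genes, of which 61.9% passed. Csad, whose enzyme makes the direct precursor of taurine, fell from 534 ± 145 to 102 ± 109 CPM, a log2 difference of -2.45 ± 0.25 (adjusted p = 2.5e-13), and 5 of 5 tested taurine genes passed, 2 higher and 3 lower. Miox, which breaks down inositol, was higher by 2.33 ± 0.40 at 0.0832 against 0.473 CPM, and Slc5a11, a second inositol carrier, by 1.43 ± 0.32 at 0.146 against 0.426 CPM, both at low levels. Slc5a11 lost its call in 2 of 13 alternatives. Of 6 inositol genes 3 were higher and 2 lower. Of 7 betaine and glycerophosphocholine genes 2 were higher and 5 lower, and of 4 related carriers 2 were higher and 1 lower.

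Of 7 partners and targets of Nfat5 in liver, 2 were higher and 3 lower. Over all liver genes 31.9% were higher and 30% lower, and these shares also stand beside the other counts of this paragraph. Hspa1b, an inducible heat shock gene with a near-identical copy that can take some of its reads, was lower by -3.58 ± 0.34 at 2.14 ± 1.64 CPM against 25.2 ± 20.6 CPM (adjusted p = 8.8e-15), and Hspa4l by -0.67 ± 0.12. The calcineurin-regulated relatives of Nfat5 were 3 higher and 1 lower, with Nfatc2 at 1.61 ± 0.30 (mean 0.612 CPM at 3 and 1.87 CPM at 28 months). Of 15 volume genes 6 were higher and 5 lower. Among them Trpv4, a channel opened by cell swelling, stood at 1.38 ± 0.21 (mean 0.708 and 1.92 CPM). Aqp4 stood at -2.06 ± 0.25 (mean 3.83 and 0.916 CPM). These levels were low. Hspa4l, Nfatc2 and Trpv4 each lost the call in 1 of 14 alternatives. Beside these liver values, markers of other cells moved: 5 of 5 Kupffer cell, 5 of 5 B lineage, 4 of 5 T cell and 5 of 6 stellate cell markers were higher at 28 than at 3 months and none lower. The summed stellate markers ran from 251 to 326 CPM at 3 months and from 365 to 536 CPM at 28 months, the Kupffer markers from 255 to 888 and from 401 to 3091 CPM. Of 5 hepatocyte markers 2 were lower. The part of these cells in the liver values was not tested.

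**Figure D5:**
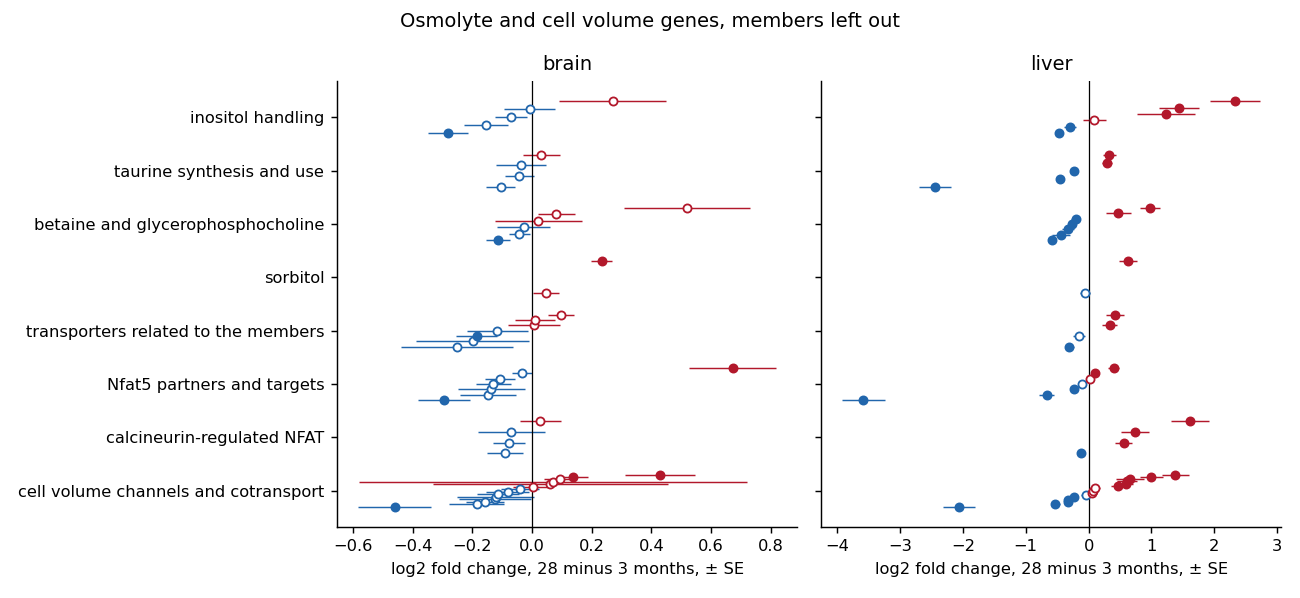
Log2 fold change between 28 and 3 months with its standard error for each tested gene of the 8 lists, the 4 genes left out, in brain (49 genes) and liver (50 genes); filled points have an adjusted p under 0.05, red is higher and blue lower at 28 months, and the x axes differ between the tissues. Most brain points are open and lie within 0.3 of 0, while 41 of 50 liver points are filled on both sides.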

How the data were processed

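PolyA RNA of brain and liver was sequenced, and the authors deposited raw read counts per Ensembl gene for each tissue. Per the submitters' processing notes, cutadapt 2.8, HISAT2 2.1.0, SAMtools 1.9 and featureCounts of Subread 2.0.1 were used, with GRCm38.p6 and mm10. The annotation and the use of strand in counting are not given in the sources used here. From these counts, genes were kept by filterByExpr, scaled by TMM (CPM is the count scaled by library size) and tested per tissue with edgeR 4.0.16 (quasi-likelihood, age and prep as terms, Benjamini-Hochberg over all genes, adjusted p under 0.05), on R 4.3.3. The tests were also run on simulated counts drawn separately for each gene. Those counts held no slope on exon length and no libraries that stand apart, so that check does not cover either. DESeq2 1.42.0, limma 3.58.1 voom (with quality weights; without them for leaving out each library), other scalings and filters, single preps and covariates were alternatives. The same age and number in brain and liver mark the same mouse in the labels. Correlations used 100000 permutations within age. The 4 genes and the gene lists were chosen with earlier results of these data known. Named genes of the lists are, per tissue, up to 4 higher and 4 lower of those that passed, by size of change. Genes most like a member are the 3 with the highest r once genes averaging under 1 CPM were left out. One of these genes is not reported here.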

Additional observations from a re-analysis of the deposited data

Results flagged for a closer look

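The change of Slc6a12 between 28 and 3 months differed between liver and brain by 0.92 ± 0.30 on the log2 scale (edgeR test of the interaction, adjusted p = 0.0066). It was singled out because the difference between the tissues was itself tested and passed. Between 24 and 3 months the same difference was 0.59 (adjusted p = 0.12) and did not pass. Between 28 and 3 months the change was -0.74 in brain and 0.12 in liver, and neither passed alone. Brain Slc6a12 was at a median of 1.27 CPM at 3 months, and 1 brain of 24 months reached 6.91 CPM. Alternatives for 28 months gave 0.32 to 1.31.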

How the results depend on the processing

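Over 67 results and 787 alternatives, 644 kept their direction and side of the threshold or their value, 71 no longer passed, 20 came to pass, 39 turned direction and 13 moved; the cause was not tested. Leaving out the 2 brain libraries, alone or with the clock gene score, the length slope and leaving out 1 liver were chosen after seeing the data. Between 28 and 3 months in brain, Slc5a3 did not pass in prep 2 (-0.59). Slc6a6 did not pass without a filter (0.27, adjusted p = 0.059), in prep 2 (0.26), in prep 3 (0.14), with only the 2 ages (0.28) or with the replicate number as a block (0.24, adjusted p = 0.075). Slc6a12 came to pass with the clock gene score (-1.02), with the replicate block (-1.02, adjusted p = 0.012), without the 28-month mouse 15 (-0.79), with the length slope (-0.84), without the 2 libraries (-0.79) and with the score as well (-1.01). Nfat5 turned to 0.062 in prep 1, 0.21 with the score, 0.0653 with the length slope and 0.10 with the score and without the 2 libraries; between 24 and 3 months to 0.0623 and 0.0017 in the last 2. Slc6a12 was 0.12 between 24 and 3 months in prep 3. Lrrc8a was -0.0092 with the score. Mrps6 turned to -0.36 and -0.14 in prep 1 and 2, -0.39 with the score, -0.18 without mouse 15, -0.25 with the length slope, -0.18 without the 2 libraries and with the score as well, and -0.15 with limma voom with quality weights. Of the listed genes in brain 9 passed, beside 5291 of all 18711 genes; in prep 1, 2 and 3 it was 5, 0 and 1 (1986, 370 and 1194 of all genes), with only the 2 ages 3 (3139) and with voom with quality weights 15 (7583). In liver 41 passed, beside 9639 of all 15579 genes, and 26 and 9 in prep 1 and 2 (6198 and 2447).

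In liver, Slc6a6 did not pass in prep 1 (0.29). Slc6a12 was -0.024 in prep 2 and passed with the length slope (0.19). Nfat5 was -0.19 in prep 1 and -0.10 with the length slope, and between 24 and 3 months -0.26 and -0.021 in prep 1 and 2 and -0.0038 with voom with quality weights. The difference between tissues in the change turned for Slc5a3 in prep 3 (0.11), Slc6a6 in prep 1 (-0.12) and Nfat5 in prep 1 (-0.24), and for Slc6a12 did not pass in single preps (1.04, 0.32 and 1.31). Slc6a6 did not differ between tissues past the threshold with TMM within each tissue (0.024) or in prep 3 (0.28). Brain and liver Slc5a3 correlated past the threshold with age alone removed (0.272), with the score removed (0.329) and without the 2 libraries (0.292), and Slc6a6 without them (0.366). In brain, with the score removed and without the 2 libraries, Slc5a3 gave -0.178 and -0.508 with Slc6a6, 0.0321 and 0.0209 with Slc6a12, and 0.152 and 0.237 with Nfat5. Slc6a6 and Slc6a12 gave 0.0263 without them. With the length slope removed, brain and liver gave 0.312 for Slc5a3, 0.607 for Slc6a6 and 0.105 for Nfat5. In brain, Slc5a3 then gave -0.717 with Slc6a6, 0.0708 with Slc6a12 and -0.182 with Nfat5, Slc6a6 gave 0.107 with Slc6a12 and 0.136 with Nfat5, and Slc6a12 gave 0.0724 with Nfat5. In liver, Slc5a3 then gave -0.13 with Slc6a6, 0.0677 with Slc6a12 and 0.227 with Nfat5, and Slc6a12 gave 0.362 with Nfat5.

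Same-numbered mice of different ages do not pair: the median correlation of their deviations was 0.00955 over 157 brain pairs and 0.0091 over 161 liver pairs, and 9 of 82 brains and 3 of 83 livers were most like their own number. With each library left out in turn (voom without quality weights, which on all brains gave Slc6a6 0.24 with an adjusted p of 0.10 and Slc6a12 -0.66 with 0.074), brain Slc5a3 ran from -0.73 to -0.61 and passed in 82 of 82, Slc6a6 from 0.21 to 0.35, passing in 2 of 82 (without the 24-month mouse 13 or the 28-month mouse 15), Slc6a12 from -0.78 to -0.53, passing in 6, and Nfat5 from -0.13 to -0.01. Liver Slc5a3 ran from -0.82 to -0.72 and Slc6a6 from 0.41 to 0.47, passing in 83 of 83. Brain Slc6a12 rests on as few as 10 counts in a library, which limits its precision.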
